A study of Mus musculus with 6 samples.

Results

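The genes described here carry glucose into the cell, break it down to pyruvate, turn pyruvate into lactate or admit it to the mitochondrion. They were 33 genes, chosen by name: glucose transporters, the enzymes of each glycolytic step, lactate dehydrogenases and lactate transporters, the pyruvate dehydrogenase kinases, the E1 subunits of pyruvate dehydrogenase, G6pdx and Hif1a. All 33 were listed among the 24062 gene symbols of the deposited count table, and all 33 passed the filter on low counts, as did 15742 genes in all. The counts came from RNA-seq of Kit-positive bone marrow cells of C57BL/6 mice, a sorted fraction rich in blood stem and progenitor cells. Each library came from 1 mouse. There were 3 wild-type (WT) mice and 3 littermates labelled Mx1Cre+ Ints11 flox/fox (KO), and all 6 libraries are labelled as sorted 4 days after poly(I:C). The Mx1 promoter that drives Cre answers to interferon, which poly(I:C) induces and it is active in many tissues. Ints11 encodes the endonuclease of Integrator, a complex that cleaves nascent RNA. The sources used here do not give the age of the mice or whether the WT littermates carried Cre. Libraries are named by genotype and mouse number (WT_341, WT_343, WT_344, KO_339, KO_340, KO_345).

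Glycolysis turns glucose into pyruvate in the cytosol, with hexokinase, phosphofructokinase and pyruvate kinase as its controlled steps. Pyruvate is then either reduced to lactate by lactate dehydrogenase and exported through monocarboxylate transporters, or oxidised in the mitochondrion by pyruvate dehydrogenase, whose E1 subunit is switched off by the pyruvate dehydrogenase kinases PDK1 to PDK4. Blood stem cells in the marrow are known for relying on glycolysis, with hypoxia-inducible factor 1 (HIF1) and the pyruvate dehydrogenase kinases as known parts of that state. Neutrophils and their precursors are also strongly glycolytic cells.

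Total counts were between 124074531 and 166860739 per library. Ints11, listed as Cpsf3l, fell from 81.7 ± 9.59 to 61 ± 3.08 CPM (the library-size-adjusted count unit, with library totals scaled by TMM factors; mean ± SD, n = 3 libraries per genotype here and below), and this change passed edgeR's quasi-likelihood test at an adjusted p of 0.0174. Reads over exons that Cre does not remove also count for the gene. Kit was at 221, 199 and 214 CPM in the WT and 220.3, 238 and 226 CPM in the KO libraries, so the marker of the sort was present in all 6. Markers of other blood cells were present too. The summed level of 14 mature neutrophil markers was 36699.9, 11794 and 21713 CPM in the WT libraries (in the order above) and 57854, 44481 and 44133 CPM in the KO libraries. Of these 14 markers 6 were called higher and 1, Csf3r, lower, and none was at 0 in all libraries. Of all genes tested, 16.0% were called higher and 19.9% lower, the shares to read this and the marker counts below against. Summed markers of mast cells, basophils and eosinophils (1301 to 1790.3 CPM in WT, 3216 to 3798 CPM in KO, 7 of 7 called higher) and of megakaryocytes (42.3 to 64.9 and 121 to 164 CPM, 6 of 10 higher) were also above the WT range in every KO library. Those of progenitors (15107 to 19927 and 8475 to 10022 CPM, 4 of 12 higher and 4 lower) and monocytes (1570.1 to 1834 and 987 to 1030.3 CPM, 5 of 8 lower) were below it, as were those of T and NK cells (277 to 312 and 225 to 240.2 CPM, 4 of 11 higher and 1, Nkg7, lower). Mpo alone (12317 ± 1902 CPM in WT, 5474 ± 412 CPM in KO) made up most of the progenitor sum. Mpo, Elane, Prtn3 and Csf1r were the progenitor markers called lower, and Gata2, Meis1, Sox4 and Cd34 those called higher. Of the 11 T and NK markers, 10 had a positive fitted change although their sum was lower. Erythroid (83 to 334 and 122 to 177 CPM, 0 of 11 called), macrophage (328 to 564 and 453 to 687 CPM, 1 of 10, Vcam1, higher), B lineage (26 to 94.4 and 53.9 to 92 CPM, 0 of 8 called) and stromal and endothelial sums (85.2 to 103 and 98.8 to 182 CPM, 4 of 10 higher) overlapped between genotypes. Of all the markers only Gp6, Cd3e, Cd8a and Bglap were under 1 CPM in every library. In bulk libraries, fewer cells of a type and less RNA per cell cannot be told apart.

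Glycolytic enzyme genes were more often lower than higher in the KO libraries. Of the 33 genes, 11 fell, 2 rose and 20 were not called at an adjusted p of 0.05 (edgeR's quasi-likelihood test, Benjamini-Hochberg adjustment over all genes tested). The genes that fell were Hk3, Pfkp, Aldoa, Tpi1, Pfkfb3, Gapdh, Pgk1, Ldha, Slc16a1, Pdk1 and Pdhb, and those that rose were Slc16a3 and Pdk4. Of all genes tested, 35.9% were called, 19.9% lower and 16.0% higher, against 33.3% lower and 6.06% higher of the 33. Strongly expressed genes as a whole were more often lower: among the 4617 genes with a mean of at least 50 CPM, 36.2% were called lower and 8.56% higher, and of the 24 genes described here at that level 11 (45.8%) fell and 1 rose. The median log2 change of the 33 was -0.15, against 0.01 over all genes tested. In 15 of the 33 every KO library lay below every WT library, and in 5 every KO library lay above, where 28.4% and 25.6% of all genes tested did so. The changes were modest in size, and only Pdk1 and Pdk4 differed at least 2-fold. The adjusted p-values of the 13 called genes lay between 0.00234 and 0.0459. Single libraries weighed heavily on these counts: 3 genes were called lower without KO_345, 5 without KO_339, 6 without KO_340, 6 without WT_344 and 15 without WT_341, while 0 were called higher without KO_339, 1 without KO_345, WT_343 or WT_344, and 5 without WT_341. With upper-quartile factors 8 of the 33 were lower and 4 higher, and with library totals only 9 and 4. These scalings moved the median log2 change of all genes to 0.15 and 0.11, and the split of all calls from 3139 lower and 2520 higher to 1931 and 3458, and to 2212 and 3151. With the neutrophil marker level as a covariate, 2 of the 33 were lower (Pdk1 and Pdhb) and 0 higher. This covariate, a mean log2 CPM, was 7.85 to 9.41 in the WT and 9.64 to 9.96 in the KO libraries. As it did not overlap between genotypes, this fit cannot tell neutrophil marker level and genotype apart, here and below.

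**Figure D1:**
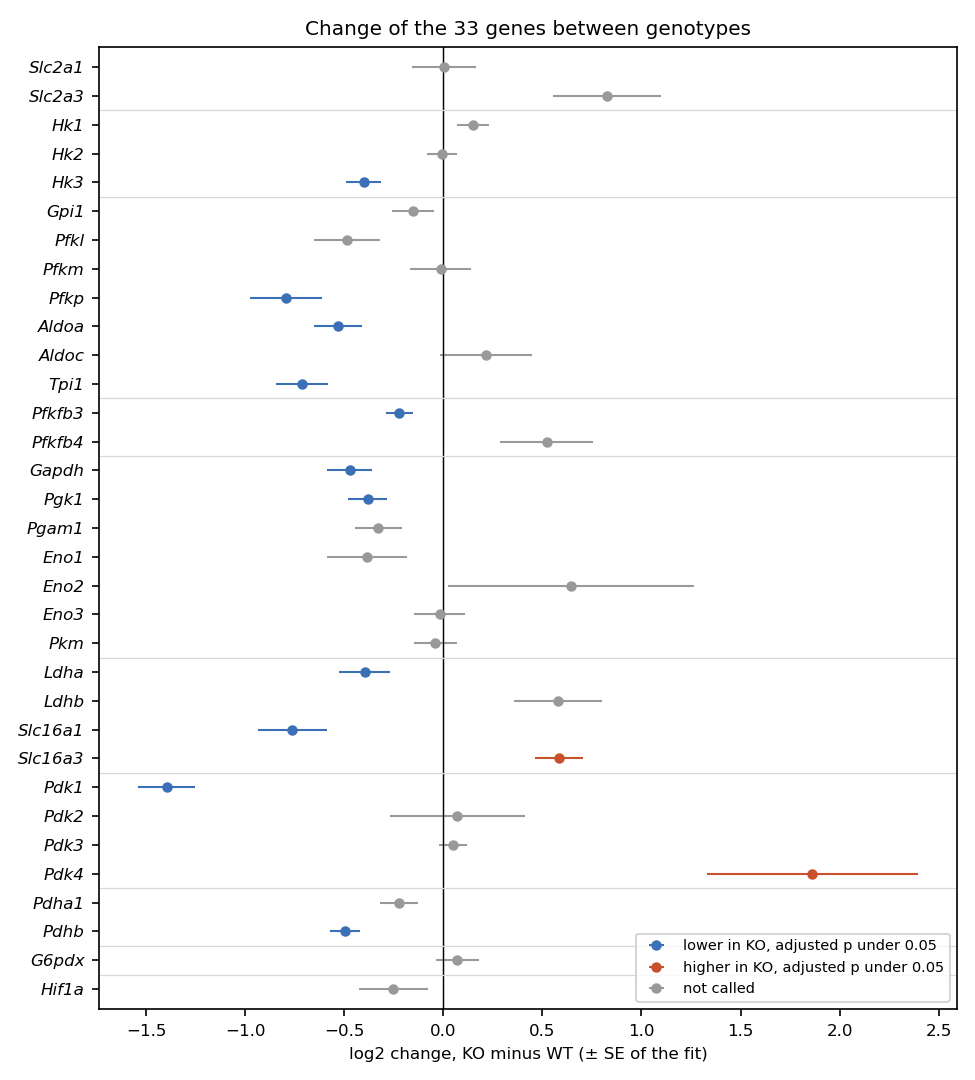
Fitted log2 change between KO and WT libraries for each of the 33 genes, with the standard error of the fit as a horizontal bar, grouped from top to bottom by step in the pathway. Blue points (11 genes) were called lower, red points (2 genes) higher, and grey points (20 genes) were not called. Pdk1 lies farthest to the left at -1.40 and Pdk4, counted at very low levels, farthest to the right at 1.86.

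**Figure D2:**
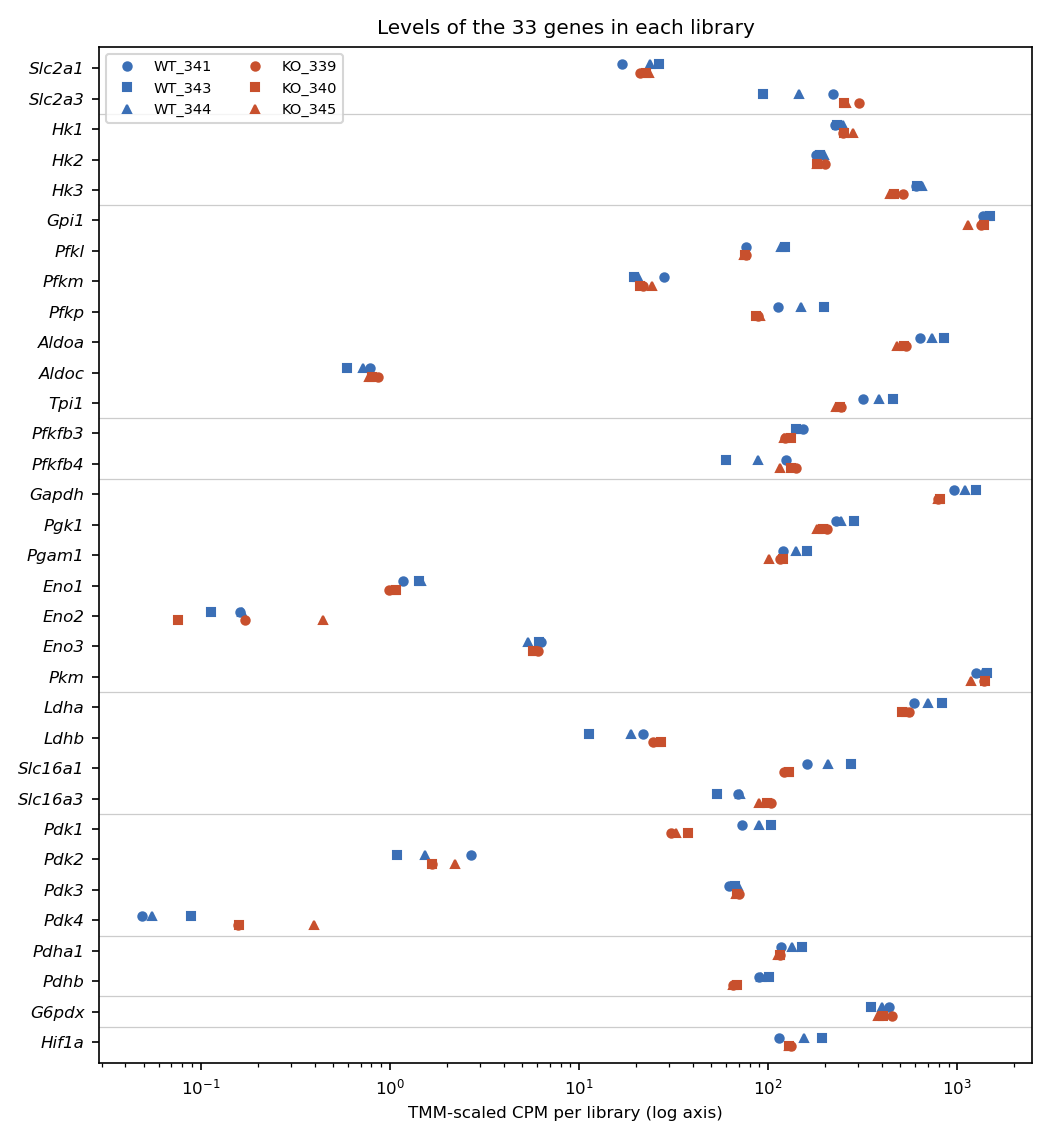
TMM-scaled CPM of each gene in each of the 6 libraries on a log axis, WT in blue above KO in red, with 1 symbol per mouse. The WT libraries have the larger SD for 26 of the 33 genes, with WT_341 (circles) nearest to the KO libraries for 20 of the 33 genes. Pdk4, Eno2, Aldoc, Eno1 and Pdk2 lie below 3 CPM.

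The WT libraries were not alike. For 10 of the 11 genes that fell, the WT library nearest to the KO mean was WT_341, and for 9 of the 11 the highest WT library was WT_343. WT_341 was also the WT library with the highest neutrophil marker sum, and WT_343 the one with the lowest. Other marker sums set WT_341 apart as well. Its erythroid sum was 334 CPM, against 83 in WT_343 and 96.8 in WT_344, and its B lineage sum 94.4, against 26 and 38.6. Its progenitor sum was the lowest of the WT libraries, 15107 CPM against 19927 and 18294. The part of these marker levels in the results was not tested.

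Promoters of the genes that the results turn on are shown here to place the motif that HIF1 recognises, whose core is ACGTG or GCGTG. They are those of Pdk1, the gene called lower with the smallest adjusted p of the 33, Slc16a1 and Slc16a3, paralogs that moved in opposite directions, Ldha, whose window holds the most matches of these 5, and Tpi1, which fell and holds none. The sequences are from RefSeq (GRCm38.p6), from 250 bases before to 50 after an annotated start, read 5′ to 3′ on the gene's strand, and capitals mark ACGTG or GCGTG on either strand, including the ACGTG within an E-box, CACGTG. Their positions are chr2:71872974-71873273 (forward strand) for Pdk1, chr3:104638414-104638713 (forward strand) for Slc16a1, chr11:120948817-120949116 (forward strand) for Slc16a3, chr7:46845554-46845853 (forward strand) for Ldha and chr6:124814109-124814408 (reverse strand) for Tpi1. Pdk1 and Ldha each have another annotated start, and the start with more matches is printed. Counted on both strands, the other window of Pdk1 holds 0 matches against 2 in the printed one. That of Ldha holds 2 against 7.
Pdk1: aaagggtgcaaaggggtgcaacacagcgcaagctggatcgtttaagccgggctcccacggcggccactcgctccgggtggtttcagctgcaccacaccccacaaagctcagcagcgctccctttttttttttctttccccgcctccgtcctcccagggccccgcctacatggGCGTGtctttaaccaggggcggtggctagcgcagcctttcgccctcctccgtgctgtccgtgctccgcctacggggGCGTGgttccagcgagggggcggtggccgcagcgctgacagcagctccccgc
Slc16a1: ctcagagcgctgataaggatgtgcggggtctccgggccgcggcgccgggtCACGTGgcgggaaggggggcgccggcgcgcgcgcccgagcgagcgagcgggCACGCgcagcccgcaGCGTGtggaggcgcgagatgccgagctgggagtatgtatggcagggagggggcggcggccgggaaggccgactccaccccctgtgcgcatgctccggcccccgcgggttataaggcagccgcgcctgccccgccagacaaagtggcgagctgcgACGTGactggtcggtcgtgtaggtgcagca
Slc16a3: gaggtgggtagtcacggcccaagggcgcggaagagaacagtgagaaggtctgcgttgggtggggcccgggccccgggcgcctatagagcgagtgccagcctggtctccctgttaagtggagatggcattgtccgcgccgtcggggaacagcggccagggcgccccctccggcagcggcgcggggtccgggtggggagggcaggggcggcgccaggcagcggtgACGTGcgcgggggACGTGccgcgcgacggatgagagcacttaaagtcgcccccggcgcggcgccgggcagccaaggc
Ldha: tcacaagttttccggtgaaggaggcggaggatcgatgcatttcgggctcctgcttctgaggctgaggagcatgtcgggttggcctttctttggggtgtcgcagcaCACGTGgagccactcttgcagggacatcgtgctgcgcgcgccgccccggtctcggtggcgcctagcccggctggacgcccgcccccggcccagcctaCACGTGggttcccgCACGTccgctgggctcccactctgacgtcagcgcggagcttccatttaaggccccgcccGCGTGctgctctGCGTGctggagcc
Tpi1: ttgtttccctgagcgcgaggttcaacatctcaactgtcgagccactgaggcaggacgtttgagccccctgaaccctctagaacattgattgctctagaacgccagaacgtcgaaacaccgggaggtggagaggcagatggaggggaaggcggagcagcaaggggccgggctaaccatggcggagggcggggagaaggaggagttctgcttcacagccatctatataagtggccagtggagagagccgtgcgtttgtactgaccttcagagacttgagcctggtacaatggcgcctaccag
RefSeq promoters were found for 32 of the 33 genes, 46 starts in all, and Slc2a3 had none in the table. ACGTG was found in 23 of the 46 and in 19.6% of all 32851 promoters of that length, GCGTG in 56.5% and 32.4%, and CACGTG in 6 of the 46 and in 7.15%. The promoters of these genes were also richer in G and C, with a median of 61.0% against 52.7%. Matches were found whatever the call: 10 of the 11 that fell, both that rose and 17 of the 19 with a promoter that were not called held ACGTG or GCGTG at 1 start or more. Per promoter, either motif was found in 80.4% of the 46 and in 43.8% of all 32851. The counts per gene take any of its starts, so they are not like these shares. A match is a stretch of letters and not a measured binding site.

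Of the 6 genes for pyruvate dehydrogenase kinases and E1 subunits, Pdk1 and Pdhb fell, Pdk4 rose and Pdk2, Pdk3 and Pdha1 were not called. Over all genes tested, 19.9% were called lower and 16.0% higher. Pdk1, the hypoxia-responsive kinase that inactivates pyruvate dehydrogenase (GRCm38, chromosome 2, 71873224 to 71903858, forward strand), was at 72.8, 104 and 89.1 CPM in the WT and 30.7, 37.6 and 32.7 CPM in the KO libraries. Even the lowest WT library, WT_341, lay far above the highest KO library. The fall was 2.63-fold, with a log2 change of -1.40 ± 0.14 (SE) and an adjusted p of 0.00234 (edgeR's quasi-likelihood test), and Pdk1 was called lower in all 14 alternative fits, with log2 changes from -1.53 to -1.01. Pdk3, on the X chromosome, was at 62.3, 67.2 and 69.5 CPM in WT and 70.4, 68.1 and 67.3 CPM in KO libraries, groups that overlapped (log2 change 0.05 ± 0.07, adjusted p = 0.616). Per base of exon, Pdk3 was the most counted of the 4 kinases in both genotypes, and Pdk1 came after it. Pdk2 was low at 2.68, 1.09 and 1.53 CPM in WT and 1.67, 1.66 and 2.22 CPM in KO, with no call (adjusted p = 0.888). Pdk4, the kinase of fasting and fatty acid use, rose from 6, 14 and 8 reads in the WT to 23, 21 and 53 reads in the KO libraries, a fitted 3.64-fold (adjusted p = 0.0318). These are under 0.5 CPM, and the call was lost without WT_343, WT_344, KO_339 or KO_345.

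Pdhb, the beta subunit of the E1 enzyme of pyruvate dehydrogenase (chromosome 14, 8165996 to 8173025, reverse strand), was at 89, 101 and 91.6 CPM in WT and 65.5, 68.4 and 65.4 CPM in KO libraries. The 3 KO libraries lay together below all WT libraries. The fall was 1.41-fold (log2 change -0.50 ± 0.07, adjusted p = 0.00494), and was called in all 14 alternative fits. Pdha1, the X-linked alpha subunit that the kinases phosphorylate, was at 117, 151 and 133 CPM in WT and 116, 115 and 113 CPM in KO libraries, without overlap and without a call (log2 change -0.22 ± 0.10, adjusted p = 0.11). In the annotated transcripts, 19.9% of the 75-base windows of Pdhb recur in 1 other gene, and none of those of Pdk1, Pdk3 or Pdha1 recur in another gene. The rest of the pyruvate dehydrogenase system is described with the neighbouring pathways.

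**Figure D3:**
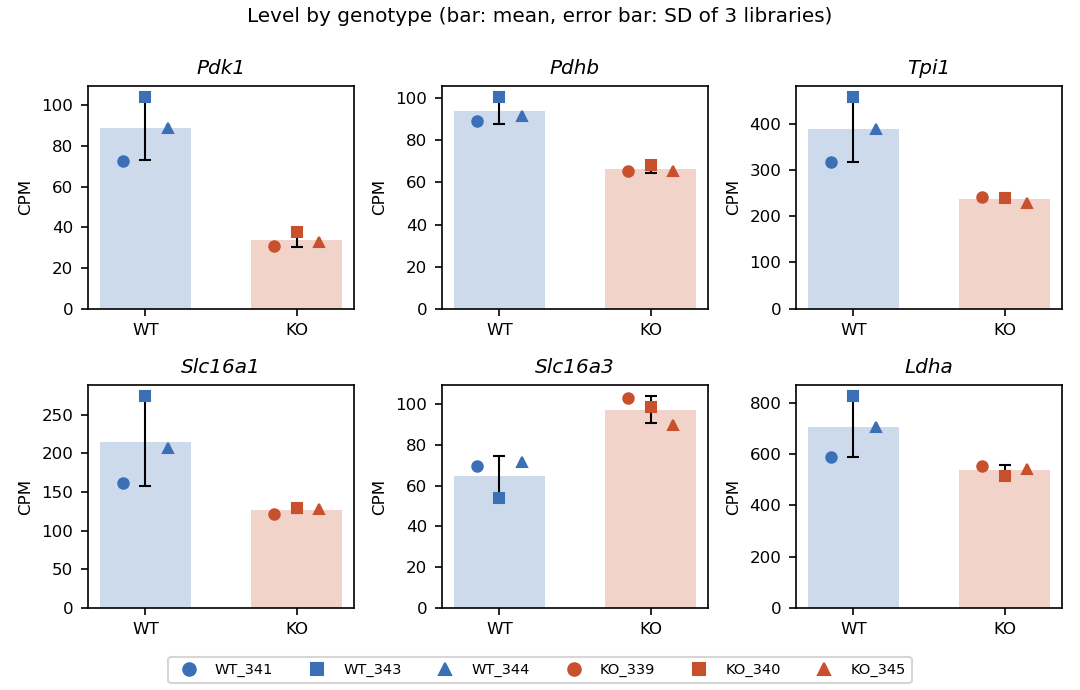
CPM by genotype for 6 genes (bars start at 0 and show the mean, error bars the SD of 3 libraries, and points the single libraries). Pdk1, Pdhb, Tpi1, Slc16a1 and Ldha are lower and Slc16a3 is higher in all 3 KO libraries than in any WT library. The WT points are more spread than the KO points for all 6 genes.

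Glucose uptake and the first step showed 1 call among 5 genes, where 35.9% of all genes tested were called. Slc2a1, the basal glucose transporter GLUT1, was at 17, 26.5 and 23.6 CPM in WT and 21.1, 22.8 and 23.4 CPM in KO libraries, with no call (log2 change 0.00 ± 0.16). Slc2a3, the high-affinity transporter GLUT3, was at 219.7, 93.6 and 146 CPM in WT and 303, 252 and 258 CPM in KO libraries. All KO libraries lay above the WT libraries, of which WT_343 was lowest and WT_341 close to the KO level. The log2 change of 0.82 ± 0.27 had an adjusted p of 0.0502 by edgeR's quasi-likelihood test, just short of the threshold of 0.05, and it passed with DESeq2, limma-voom, upper-quartile factors, library totals only and without WT_341. Its log2 change was 0.04 with the neutrophil covariate.

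Hexokinases trap glucose as glucose 6-phosphate. Hk3, the isozyme of myeloid cells (chromosome 13, 55005985 to 55021385, reverse strand), fell 1.32-fold from 609, 615 and 653 CPM to 515, 466 and 440.0 CPM (adjusted p = 0.0141). The 3 WT libraries lay close together, unlike those of most genes that fell, and its log2 change was -0.43 with the neutrophil covariate against -0.40 without it (adjusted p = 0.062). The call was also lost without WT_344, KO_340 or KO_345. Hk1, the housekeeping isozyme, was at 225, 232 and 249 CPM in WT and 249.9, 253 and 280.1 CPM in KO libraries, above the WT range in every KO library by little (log2 change 0.15 ± 0.08, adjusted p = 0.172), and was called higher in the fits on upper-quartile factors and on library totals. Hk2, the inducible isozyme, was at 178, 187 and 198 CPM in WT and 199, 181 and 181 CPM in KO libraries, which overlapped (log2 change -0.01 ± 0.08, adjusted p = 0.957).

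Of the 7 genes from glucose 6-phosphate to the triose phosphates, 3 fell. Over all genes tested 19.9% fell, and 36.2% of those with a mean of at least 50 CPM. Pfkm and Aldoc lie under that level, so the latter share is not a like one for the 7. At that level Pfkp, Aldoa and Tpi1 fell, and Gpi1 and Pfkl were not called. Gpi1, the isomerase that follows hexokinase and 1 of the most counted of the 33, was at 1364, 1484 and 1434 CPM in WT and 1329.7, 1379.5 and 1139 CPM in KO libraries and was not called (log2 change -0.15 ± 0.10). Pfkp, the platelet-type phosphofructokinase (chromosome 13, 6579768 to 6648777, reverse strand), fell 1.73-fold, from 113, 198 and 149 CPM to 88.9, 86.5 and 90.2 CPM (adjusted p = 0.0162). KO libraries agreed within a few CPM, whereas WT_343 held far more than WT_341. The call of Pfkp was lost without KO_339 or KO_345, and with the neutrophil covariate its log2 change went from -0.79 to -0.22. Pfkl, the liver-type isozyme, was at 76.6, 123 and 116 CPM in WT and 76, 75.8 and 74.3 CPM in KO libraries: WT_341 sat at the KO level and the other two WT libraries well above it, and the difference was not called (log2 change -0.48 ± 0.17, adjusted p = 0.0562). Pfkm, the muscle-type isozyme, overlapped between genotypes at 28.1, 19.5 and 20.4 CPM in WT and 21.7, 21.2 and 24.5 CPM in KO libraries (log2 change -0.01 ± 0.15).

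Aldolase A, encoded by Aldoa (chromosome 7, 126795234 to 126800751, reverse strand), splits fructose 1,6-bisphosphate. Aldoa fell 1.44-fold, from 635, 852 and 735 CPM to 537, 523 and 479 CPM (log2 change -0.53 ± 0.12, adjusted p = 0.0156), a call lost without KO_345. Aldoc, the brain-type aldolase, was under 1 CPM in every library and was not called. Tpi1, which interconverts the triose phosphates (chromosome 6, 124810586 to 124814296, reverse strand), fell 1.64-fold, from 318, 459 and 388 CPM to 242, 239.8 and 229 CPM (log2 change -0.71 ± 0.13, adjusted p = 0.00834). Every KO library lay below every WT library, and Tpi1 was the only one of the 11 besides Pdk1 and Pdhb that stayed called whichever single library was left out. With the neutrophil covariate its log2 change was -0.35 (adjusted p = 0.064).

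The bifunctional enzymes that set fructose 2,6-bisphosphate, the activator of phosphofructokinase, differed. Pfkfb3 fell 1.17-fold, from 153, 141 and 146 CPM to 124, 132 and 122 CPM (adjusted p = 0.0423), the smallest fall of the 11, and the call was lost in 10 of 14 alternative fits, among them all 3 other scalings. Pfkfb4 was at 124, 60.0 and 88.1 CPM in WT and 141, 133 and 116 CPM in KO libraries, with WT_341 inside the KO range, and was not called (log2 change 0.52 ± 0.24, adjusted p = 0.118).

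Below the triose phosphates, 2 of 7 genes fell, against 19.9% of all genes tested and 36.2% of those with a mean of at least 50 CPM. The 7 include Eno1, Eno2 and Eno3, described further below. These enolase genes lie under that level, so the latter share is not a like one for the 7. At that level Gapdh and Pgk1 fell, and Pgam1 and Pkm were not called. Gapdh, which oxidises glyceraldehyde 3-phosphate (chromosome 6, 125161715 to 125166467, reverse strand), fell 1.39-fold, from 963, 1264 and 1105 CPM to 794, 815 and 792 CPM (adjusted p = 0.0187). Pgk1, the X-linked phosphoglycerate kinase that makes the first ATP of the pathway, fell 1.3-fold, from 229.7, 284 and 244 CPM to 204, 196 and 181 CPM (adjusted p = 0.0228). In both, the 3 KO libraries lay below all WT libraries, and both calls were lost without WT_344 or any 1 KO library. Pgk1 was also lost with upper-quartile factors. Pgam1, the mutase of the next step, was at 120.2, 161 and 141 CPM in WT and 116, 119.6 and 101 CPM in KO libraries, lower in every KO library, with no call (log2 change -0.33 ± 0.12, adjusted p = 0.0677). Pkm, which encodes the pyruvate kinases M1 and M2 and whose counts do not separate these splice forms, was at 1261, 1442 and 1377 CPM in WT and 1385, 1405 and 1178 CPM in KO libraries, groups that overlapped (log2 change -0.04 ± 0.11, adjusted p = 0.791).

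Enolase could not be read from this table. Eno1, the enolase of most tissues, was listed at 1.18, 1.43 and 1.47 CPM in WT and 0.994, 1.08 and 1.05 CPM in KO libraries, far below the other enzymes of this stretch. In the annotation 65.4% of the 75-base windows of its transcript recur exactly in other genes, 64.2% in the retrogene Eno1b, which was itself listed at 31.1, 88.6 and 97.3 CPM in WT and 34.1, 34.4 and 36.5 CPM in KO libraries. Neither was called. The share of such windows was 80.3% for Gapdh (118 other genes), 67.5% for Pgk1, 40.6% for Pgam1, 19.6% for Pkm, 16.7% for Ldhb and 9.96% for Gpi1, and 0 for 19 of the 33. The sources used here do not say how reads with several positions were counted, so levels of the genes with large shares are uncertain. Eno3, the muscle enolase, was at 6.28, 6.17 and 5.39 CPM in WT and 6.08, 5.7 and 5.81 CPM in KO libraries, and Eno2, the neuronal one, was under 0.5 CPM in every library, neither called.

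Lactate genes moved in both directions. Ldha, the lactate dehydrogenase subunit that favours lactate formation (chromosome 7, 46841475 to 46855627, forward strand), fell 1.32-fold, from 589, 826 and 704 CPM to 554, 513 and 543 CPM (log2 change -0.40 ± 0.13, adjusted p = 0.0459). WT_341 was only slightly above the KO libraries, and the call was lost in 9 of 14 alternative fits, with a log2 change of -0.07 with the neutrophil covariate. Ldhb, the subunit that favours pyruvate, was at 21.8, 11.3 and 18.9 CPM in WT and 24.6, 27 and 26 CPM in KO libraries, higher in all 3 and not called (log2 change 0.58 ± 0.22, adjusted p = 0.0753).

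Slc16a1, the monocarboxylate transporter MCT1 (chromosome 3, 104638668 to 104658462, forward strand), fell 1.7-fold, from 161, 274 and 207 CPM to 122, 129 and 128 CPM (log2 change -0.76 ± 0.17, adjusted p = 0.016). Slc16a3, the lactate exporter MCT4 (chromosome 11, 120948480 to 120960868, forward strand), rose 1.5-fold, from 69.4, 53.8 and 71.3 CPM to 103, 98.7 and 89.9 CPM (log2 change 0.58 ± 0.12, adjusted p = 0.0116). Neither pair of groups overlapped. The call of Slc16a1 was lost without KO_339 or KO_345 and that of Slc16a3 without KO_339. With the neutrophil covariate the log2 changes were -0.21 and 0.32, and neither passed.

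G6pdx, the X-linked enzyme that opens the pentose phosphate pathway, was at 434, 349 and 402 CPM in WT and 454, 407 and 383 CPM in KO libraries, which overlapped (log2 change 0.07 ± 0.11, adjusted p = 0.627). Hif1a, the oxygen-regulated subunit of HIF1, was at 114, 193 and 156 CPM in WT and 132, 129 and 128 CPM in KO libraries. The KO libraries lay inside the WT range, and the gene was not called (log2 change -0.25 ± 0.17, adjusted p = 0.276). HIF1 activity is set mainly by the stability of the protein, which these data do not measure.

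Ratios of isozymes within a library do not depend on how libraries are scaled. Slc16a3 had 0.431, 0.196 and 0.345 counts per count of Slc16a1 in the WT libraries and 0.847, 0.766 and 0.703 in the KO libraries. The ratio was 2.5-fold higher in KO. The count ratio of Pdk1 to Pdk3 was 1.17, 1.55 and 1.28 in WT and 0.436, 0.551 and 0.486 in KO libraries, 2.71-fold lower. Pdk1 thus outnumbered Pdk3 in every WT library and was outnumbered in every KO library, as counts not corrected for length. Ldhb stood at 0.0369, 0.0137 and 0.0268 per count of Ldha in WT and 0.0443, 0.0528 and 0.0479 in KO libraries, 2.02-fold higher, although WT_341 was near the KO value. Hk3 over Hk1 was 2.71, 2.66 and 2.62 in WT and 2.06, 1.84 and 1.57 in KO libraries. Of the 14 ratios compared, 8 reached the smallest p that an exact two-sided permutation test over 3 and 3 libraries allows (exact p = 0.10, adjusted over the 14 ratios 0.175), so none could pass 0.05. These 8 were the 4 above and Pfkp/Pfkl, Pfkfb4/Pfkfb3, Aldoc/Aldoa and Pdha1/Pdhb. Each kept its direction whichever library was left out, which the non-overlap of the groups makes certain. For single genes, non-overlap of the groups was seen in 53.9% of all genes tested. The ratios of Slc2a3 to Slc2a1, Hk2 to Hk1, Pfkm to Pfkl, Pdk2 to Pdk3 and of Eno2 and Eno3 to Eno1 overlapped between genotypes.

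**Figure D4:**
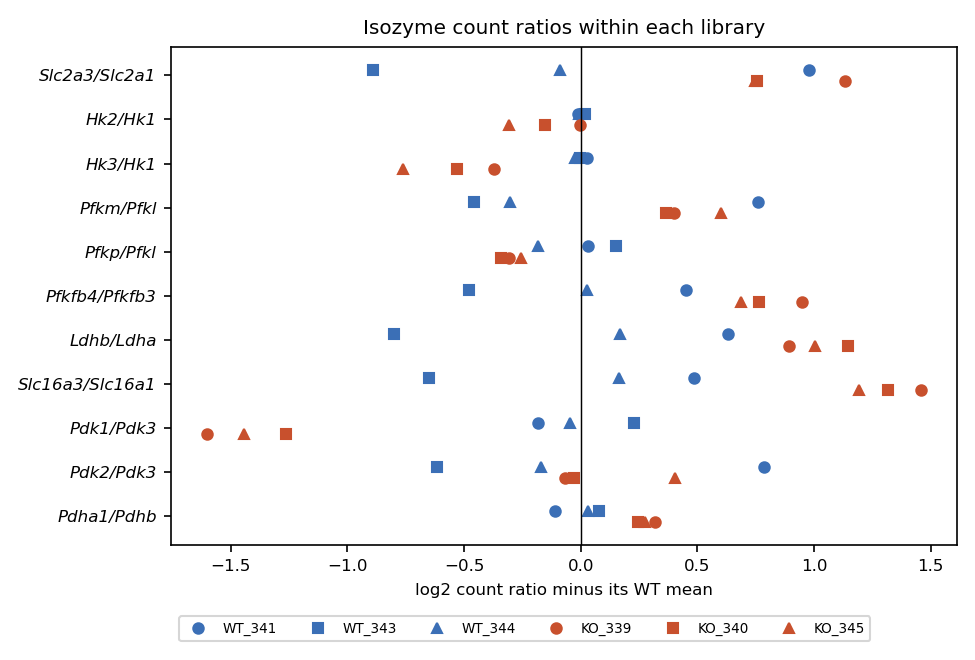
Log2 count ratio of isozyme pairs in each library, set to 0 at the mean of the WT libraries (WT blue, KO red, 1 symbol per mouse; pairs with Eno1 or Aldoc, which are hardly counted, are left out). The KO points of Slc16a3/Slc16a1 lie to the right of all WT points, and those of Pdk1/Pdk3 to the left of them. WT_341 and WT_343 lie on opposite sides of 0 for Slc2a3/Slc2a1, Pfkfb4/Pfkfb3, Ldhb/Ldha and Slc16a3/Slc16a1.

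Levels can be compared between genes only per length of exon. Per kilobase of annotated exon, Pkm (272 ± 18.3 CPM per kb), Gapdh (269 ± 36.5) and Aldoa (254 ± 37.3) led in the WT libraries and did not differ beyond their spread, followed by Gpi1 (221 ± 9.34) and Ldha (214 ± 35.8). In the KO libraries Pkm (265 ± 25.2) led, and Gpi1 (199 ± 19.6), Gapdh (194 ± 3.06) and Aldoa (176 ± 10.4) followed. This order depends on the length used. Pkm has 5001 bases of annotated exon but a longest transcript of 2432, Aldoa 2911 and 1549, and Gapdh 4133 and 3289. Divided by the longest transcript, Gapdh lies below Aldoa, Gpi1 and Ldha in both genotypes. These are the longest annotated transcripts of any type. The longest protein-coding transcript of Gapdh has only 1420 bases, so the place of Gapdh in this order is not settled. Hk3 made up 74.2 ± 0.363% of hexokinase transcripts per length in WT and 67.4 ± 1.84% in KO libraries, so it was the main hexokinase transcript in both. Pdk3 made up 68.5 ± 2.56% of the 4 kinases in WT and 84.3 ± 1.41% in KO, and Pdk1 30.0 ± 3.26% and 13.6 ± 1.39%. Slc16a3 made up 20.9 ± 6.3% of the 2 lactate transporters in WT and 39.1 ± 2.22% in KO. Ldha made up 94.9 ± 2.22% of lactate dehydrogenase transcripts in WT and 90.8 ± 0.735% in KO. None of these 5 shares overlapped between genotypes (exact two-sided permutation test, n = 3 each, exact p = 0.10, the smallest possible). Of the 23 shares computed, 15 did not overlap, and 8 did: those of Slc2a1 and Slc2a3, Pfkl, Pfkm, Pdk2 and the 3 enolases. In families of 2 genes the shares are complements, so each result is counted for both genes. The shares also rest on the same counts as the ratios above. Non-overlap was seen for 53.9% of all single genes tested.

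The genes around these steps were taken from 7 further lists. Of 13 tested genes of pyruvate entry and the rest of the pyruvate dehydrogenase system, 7 fell and 1 rose, with a median log2 change of -0.36. As for every list below, the shares over all genes tested to read this against were 19.9% lower and 16.0% higher. Among genes with a mean of at least 50 CPM they were 36.2% and 8.56%. Of these 13 genes only Dlat, Dld and Me2 were at that level. Most tested genes of the pentose phosphate list and of the gluconeogenesis and glycogen list were at it. Most of those in the other lists were not. With upper-quartile factors 5 of the 13 were lower and 1 higher, and with the neutrophil covariate 1 lower and 0 higher. Dlat, the E2 core of pyruvate dehydrogenase, fell from 87.5 ± 18.4 to 48.8 ± 3.22 CPM (adjusted p = 0.00762), the phosphatase gene Pdp2 from 18.4 ± 1.47 to 12.3 ± 0.891 CPM and its regulator Pdpr from 29.9 ± 0.898 to 21.7 ± 1.9 CPM. The alanine aminotransferase gene Gpt2 fell too (12.2 ± 9.07 to 2.84 ± 0.565 CPM, with 6.72, 22.7 and 7.29 CPM in the WT libraries). Of the genes named after their values were seen, the E3 subunit gene Dld (-0.45 on the log2 scale) and the E3-binding gene Pdhx (-0.48) and the malic enzyme gene Me2 (-0.26) were also called lower, and the mitochondrial pyruvate carrier gene Mpc2 (0.37) was called higher. The other phosphatase gene, Pdp1, was at 11.9 ± 0.253 CPM in WT and 12.7 ± 1.4 CPM in KO libraries and was not called (adjusted p = 0.537). The system thus held called falls (Pdhb, Dlat, Dld, Pdhx, Pdp2, Pdpr and Pdk1), a called rise (Pdk4) and genes without a call (Pdha1, Pdp1, Pdk2 and Pdk3).

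The pentose phosphate list had 2 lower and 0 higher calls among 10 tested genes (median -0.15). At an unadjusted p under 0.05 in edgeR's quasi-likelihood test, 3 were lower and 0 higher. Lower calls were 3 with DESeq2, 2 with limma-voom, and 1 under each of the neutrophil covariate, upper-quartile factors and scaling by library totals. The share of lower calls was near the 19.9% of all genes. It was below the 36.2% of genes with a mean of at least 50 CPM, a level that all of the list but Rbks reached. The 2 called lower were Prps1, which makes phosphoribosyl pyrophosphate for nucleotide synthesis (71.2 ± 14.8 to 37.1 ± 3.23 CPM, adjusted p = 0.00606), and Rpia, the ribose 5-phosphate isomerase (146 ± 8.39 to 116 ± 6.7 CPM, adjusted p = 0.0175). Prps2 (log2 change -0.35) and Rbks (-0.24) were not called.

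Among 14 tested genes of gluconeogenesis and glycogen, 7 fell and 2 rose (median -0.31), against 19.9% and 16.0% of all genes tested. With the neutrophil covariate 3 were lower and 0 higher. G6pc3, the glucose 6-phosphatase of non-liver cells, fell 2.14-fold, from 68.7 ± 9.39 to 32.2 ± 2.97 CPM, and Slc37a4, the transporter that feeds it, 1.57-fold, from 33.9 ± 4.2 to 21.7 ± 1.58 CPM (adjusted p = 0.0029 and 0.0079). Inherited loss of either gene is known to cause neutropenia. Phka2, a regulatory subunit of phosphorylase kinase, fell from 193 ± 7.77 to 107 ± 4.16 CPM, and Pck2, the mitochondrial phosphoenolpyruvate carboxykinase, from 103 ± 26.7 to 50.9 ± 0.843 CPM. The genes that rose were the glycogen phosphorylases Pygl (0.75 on the log2 scale) and Pygm (0.66), named after their values were seen.

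Of 21 tested further isozymes and partners, 4 rose and 4 fell (median 0.01), near the shares over all genes of 16.0% higher and 19.9% lower. With the neutrophil covariate 1 was higher and 1 lower. Minpp1, a phosphatase of inositol phosphates and 2,3-bisphosphoglycerate, fell from 76.5 ± 6.73 to 48.1 ± 2.77 CPM. Ldhc, the testis lactate dehydrogenase, rose from 2.75 ± 0.422 to 6.26 ± 0.712 CPM. The urate and hexose transporter gene Slc2a9 rose from 16.6 ± 2.75 to 28.5 ± 0.565 CPM. Tigar, listed as 9630033F20Rik and named here after its value was seen, encodes a fructose 2,6-bisphosphatase known as a p53 target, and fell 1.86-fold from 20.2, 32.5 and 25.9 CPM to 13.1, 15.3 and 13.8 CPM (adjusted p = 0.00987). Also called, and named on the same terms, were the muscle mutase Pgam2 (0.66 on the log2 scale) and the monocarboxylate transporter chaperones Bsg (-0.39) and Emb (-0.58).

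None of the 11 regulators and partners of HIF1 was called by edgeR's quasi-likelihood test (0 at an unadjusted p under 0.05, and 0 with DESeq2 or limma-voom; 2 were called higher with upper-quartile factors or library totals only and 1 lower with the neutrophil covariate). Those nearest to a call were Vhl (log2 change 0.21 ± 0.09, adjusted p = 0.108), Arnt2 (1.03 ± 0.46, adjusted p = 0.114), Hif1an (-0.20 ± 0.10, adjusted p = 0.157) and Crebbp (0.15 ± 0.08, adjusted p = 0.17). Arnt2 was hardly counted, at 0.0754 ± 0.0198 CPM in WT and 0.154 ± 0.055 CPM in KO libraries. Of 17 tested hypoxia targets outside glycolysis, 5 were higher and 3 lower (median 0.13), against 16.0% and 19.9% of all genes, so the share of lower calls was near that of all genes. Adding the neutrophil covariate gave 2 higher calls and 1 lower call. Ddit4, an inhibitor of mTORC1 that several stresses induce, rose 2.54-fold to 30.6 ± 0.622 CPM, and Bhlhe40, a transcriptional repressor, 1.67-fold to 50.4 ± 9.48 CPM. P4ha1, a collagen prolyl hydroxylase, fell 2.09-fold to 24.6 ± 0.435 CPM and the mitophagy gene Bnip3 1.51-fold to 7.34 ± 0.353 CPM. Named after their values were seen, Bnip3l (0.28 on the log2 scale), Ndrg1 (0.44) and P4ha2 (1.88) were also called higher and Car9 (-0.54) lower. P4ha2 was hardly counted, with 21, 5 and 15 reads in the WT and 62, 40 and 51 reads in the KO libraries. Of the 3 tested copies of glycolytic genes, Eno1b (log2 change -1.05, adjusted p = 0.0599), Aldoart1 (-1.004, adjusted p = 0.152) and Ldhal6b (-0.22, adjusted p = 0.632), none was called (1 at an unadjusted p under 0.05, 1 with DESeq2 and 0 with limma-voom). Aldoart1 was hardly counted too, at 0.147 ± 0.0235 CPM in WT and 0.0728 ± 0.039 CPM in KO libraries.

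**Figure D5:**
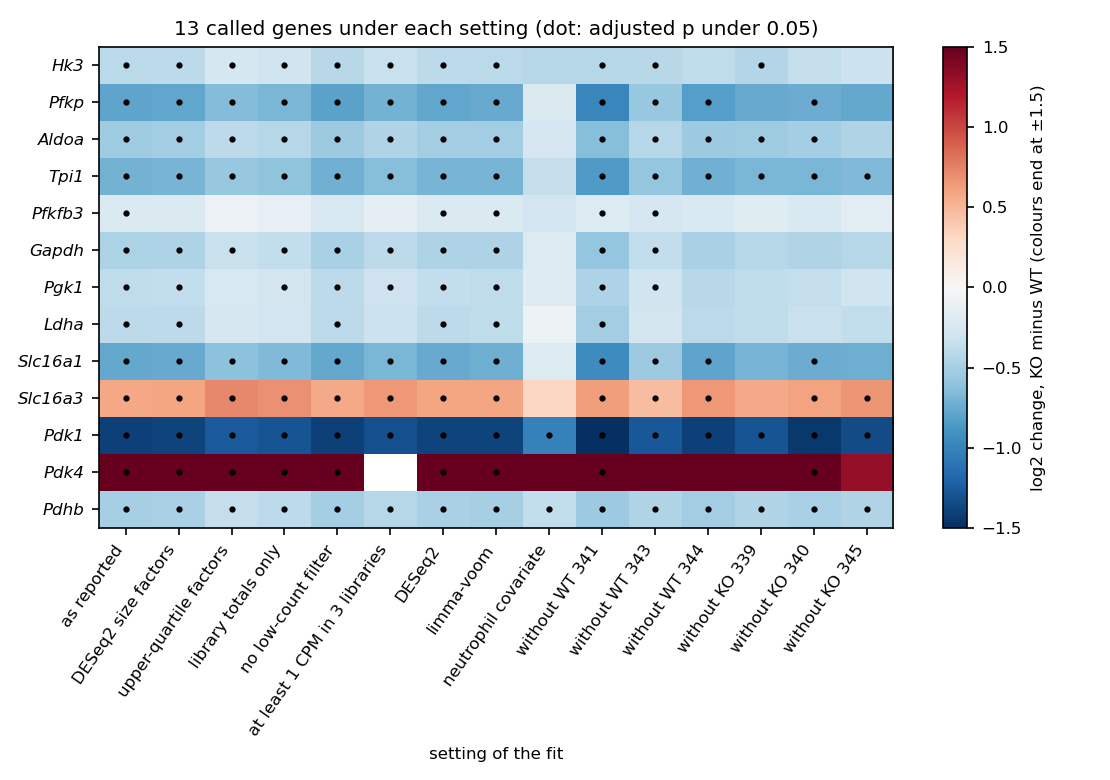
Fitted log2 change of the 13 called genes (rows) in the fit as reported and in each alternative fit (columns), in colour from blue (lower in KO) to red (higher in KO), with a dot where the adjusted p was under 0.05. Dots run through all columns for Pdk1 and Pdhb, and through all but the neutrophil covariate for Tpi1. The blank cell of Pdk4 marks a filter it did not pass.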

How the data were processed

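Messenger RNA of 6 libraries was sequenced, 3 WT and 3 KO, 1 mouse each. The authors deposited raw, unnormalized read counts per gene symbol. Per the submitters' processing notes, mm10 was the build and FastQC, Trimmomatic, STAR and HTSeq were used, versions unstated. The sources used here do not give the annotation, the strand setting or the handling of reads with several positions. The kit was strand-specific, with paired 75-base reads, per the labels' protocols. Groups came from the titles.

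Tests used edgeR 4.0.16 (R 4.3.3): filterByExpr (minimum count 10, minimum total 15), TMM factors, robust glmQLFit and glmQLFTest, with p-values adjusted by Benjamini-Hochberg over the 15742 genes kept and a threshold of 0.05. The fit was also run on counts simulated with independent genes, which cannot show how shifts shared by many genes affect the calls. Alternatives were DESeq2 1.42.0, limma-voom (3.58.1), 3 other scalings, 2 other filters, the mean log2 CPM of 14 neutrophil markers as a covariate, and each library left out. Levels are TMM-scaled CPM. At these depths the counting error of most of the genes is far below the spread between mice. Isozyme ratios are of counts plus 0.5. Lengths, positions and transcripts are from GENCODE M21 (GRCm38, the assembly of mm10), 1-based. Windows of 75 bases were compared between annotated transcripts on the sense strand. Named genes are all 33, Ints11, and up to 4 tested genes per neighbouring list with the smallest adjusted p; exceptions are marked. A gene the rule names among the further isozymes is not reported here. The 33 genes and all lists, 7 of pathways and 10 of cell type markers, were chosen with earlier results of these data known. The markers Ly6g and Ahsp and 4 of the 9 gene copies matched no listed symbol and were not used. The level of 50 CPM and the genes whose promoters are printed were chosen after seeing the data.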

Additional observations from a re-analysis of the deposited data

How the results depend on the processing

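The fall of Pdk1 and that of Pdhb were called in all 14 alternative fits, and none of the 13 called genes changed direction in any fit it entered. Genes of the 33 called higher (2 as reported) were 4 with upper-quartile factors, 4 with library totals only, 4 with DESeq2, 1 with a filter of 1 CPM in 3 libraries and 0 with the neutrophil covariate, and between 0 and 5 when single libraries were left out. Those called lower (11) were 2 with the neutrophil covariate and between 3 and 15 with libraries left out. Over all genes, those called higher (2520) were 511 with the neutrophil covariate and between 1039 and 3573 with libraries left out. Those called lower (3139) were 1931 with upper-quartile factors, 865 with the neutrophil covariate and between 1263 and 4306 with libraries left out. The cause of these shifts was not tested, and fits without a library have fewer samples. The neutrophil covariate did not overlap between genotypes. The share of Pfkl among phosphofructokinase transcripts differed by -0.15 percentage points (KO minus WT) over all exons and by 0.75 over the longest transcript. No paired analysis was possible because the genotypes share no mouse numbers. Nothing in the labels says whether the mice shared a batch. Counts do not limit the strongly expressed genes. Pdk4, Eno2, Aldoc, Eno1 and Pdk2 were counted under 3 CPM in every library.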
